A study of Mus musculus with 3 samples.

Results

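The endoderm-specifying transcription factors Foxa1, Foxa2, Foxa3, Hnf4a, Hhex and Prdm1 were followed in mouse embryoid bodies, the aggregates that embryonic stem cells form as they differentiate. Every array probe whose RefSeq accession belonged to one of these symbols was taken, which gave 7 probes of 39429 and 6 genes of the 21153 that could be named. Foxa2 had 2 probes and each of the other factors had 1. The tested cultures came from Hopx-/- embryonic stem cells and received 12.5 µM XAV939, a tankyrase inhibitor that stabilises axin and so lowers β-catenin in the Wnt pathway. The cultures they were set against came from Hopx+/- cells and had no inhibitor by their label, so they too carried a mutant Hopx allele. Both kinds of line had been derived from blastocysts at E3.5, kept on mouse feeder cells, and differentiated by hanging drops and then in a serum-free cardiac medium with VEGF, bFGF, FGF10 and ascorbic acid until day 8. The number of lines behind each genotype is not known here, and genotype and inhibitor cannot be told apart. Each of 3 two-colour Agilent arrays carried both RNAs, and the 3 are described as biological replicates.

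The early embryo forms endoderm in separate places: visceral endoderm wraps the epiblast and feeds it, and definitive endoderm leaves the primitive streak to line the gut. The FOXA proteins are forkhead factors that can bind compacted chromatin and open it for other regulators, and HNF4A is a nuclear receptor that drives lipoprotein and plasma protein genes in visceral endoderm and liver. HHEX is a homeodomain repressor of the anterior visceral endoderm, the foregut and the liver bud, and PRDM1 (BLIMP1) is a zinc finger repressor of visceral endoderm and germ cell precursors. Both of these last factors are also active outside endoderm, HHEX in endothelial and blood precursors and PRDM1 in germ cells and trophoblast.

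All 6 factors had lower RNA signals in Hopx-/- + XAV939 embryoid bodies than in Hopx+/- embryoid bodies, but by very unequal amounts. Foxa1 and Foxa2 ranked 11 and 13 from the lowest among all tested genes, Hnf4a followed, Foxa3 was intermediate, and Prdm1 and Hhex differed little. Each of the 6 had the same sign on all 3 arrays and passed the test by limma at an adjusted p of 0.05. The background to this count is high, since 33% of the 14718 genes tested were called lower and 31.5% higher, so that 64.5% were called at all. Only 4 of the 6 were lower by 1 or more on the log2 scale, against 9.55% of all tested genes. The median log2 ratio was -2.60 over the 6 factors and -0.01 over all tested genes. The SD of a factor over the 3 arrays lay between 0.06 and 0.23, against a median of 0.17 over all genes. All 7 probes were called lower in the fit by probe, where 31.4% of 24394 probes were. The RNA is from whole cultures, so fewer endoderm cells and less RNA per cell cannot be told apart.

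These directions are likely but not settled. By the labels, RNA of Hopx-/- + XAV939 embryoid bodies carried Cy5 throughout. Over the tested probes, however, replicate 3 ran opposite to the others: its Cy5 over Cy3 ratios had r = -0.88 with replicate 1 and r = -0.91 with replicate 2, against r = 0.96 between replicates 1 and 2. The authors' processed values have replicate 3 with the opposite sign, and it was turned here too, so that every value below is Hopx-/- + XAV939 over Hopx+/-. If the true direction were the opposite, all 6 factors would be higher in Hopx-/- + XAV939 embryoid bodies. Hopx itself, the targeted gene, had normalized signals of 251, 221 and 232 in Hopx-/- + XAV939 embryoid bodies, against 1582, 1483 and 1533 in Hopx+/- embryoid bodies. It was 6.54-fold lower (log2 ratio -2.71 ± 0.05, SD, n = 3 arrays here and below; adjusted p = 2.03e-07 by limma), and a second probe was 4.77-fold lower. Its signal in Hopx-/- + XAV939 embryoid bodies stayed above background, and the place of its probes relative to the deletion is not known here. With replicate 3 used as labelled, limma called 0 genes either way, while 13 were higher and 27 lower before adjustment at p below 0.05.

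The promoters of the 4 factors that were lower by 1 or more on the log2 scale are shown because these genes were low together. The windows are RefSeq's on GRCm38.p6, from 250 bases before to 50 after each start, written 5′ to 3′ on the gene's strand. All 6 factors matched, with 9 windows in all. The capitals mark matches to any of 7 motifs searched on both strands, namely the forkhead motifs TGTTTAC and TGTTTGC and TATTTAC, the HNF4 motif CAAAGTCCA, the GATA motif AGATAA, the TATA box TATAAA and a longer PRDM1 motif.
Foxa1, chr12:57546062-57546361, minus strand: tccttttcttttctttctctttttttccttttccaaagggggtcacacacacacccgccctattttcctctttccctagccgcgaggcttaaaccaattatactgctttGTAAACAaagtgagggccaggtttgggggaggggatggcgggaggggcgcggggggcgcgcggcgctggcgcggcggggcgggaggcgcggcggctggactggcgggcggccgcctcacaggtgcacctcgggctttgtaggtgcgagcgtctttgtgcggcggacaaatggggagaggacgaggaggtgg
Foxa2, the most downstream of 3 starts, chr2:148045415-148045714, minus strand: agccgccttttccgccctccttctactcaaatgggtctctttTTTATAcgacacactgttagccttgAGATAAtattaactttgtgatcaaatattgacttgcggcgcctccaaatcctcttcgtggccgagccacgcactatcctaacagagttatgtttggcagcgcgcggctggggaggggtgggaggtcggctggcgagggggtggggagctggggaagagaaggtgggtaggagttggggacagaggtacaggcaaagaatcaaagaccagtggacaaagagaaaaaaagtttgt
Foxa3, chr7:19023490-19023789, minus strand: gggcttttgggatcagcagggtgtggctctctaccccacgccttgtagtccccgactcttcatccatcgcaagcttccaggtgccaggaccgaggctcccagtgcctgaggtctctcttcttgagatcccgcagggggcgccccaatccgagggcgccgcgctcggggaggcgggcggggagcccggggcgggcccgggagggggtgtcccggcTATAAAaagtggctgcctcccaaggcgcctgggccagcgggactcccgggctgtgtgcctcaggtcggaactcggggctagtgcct
Hnf4a, the first of 2 starts, chr2:163506607-163506906, plus strand: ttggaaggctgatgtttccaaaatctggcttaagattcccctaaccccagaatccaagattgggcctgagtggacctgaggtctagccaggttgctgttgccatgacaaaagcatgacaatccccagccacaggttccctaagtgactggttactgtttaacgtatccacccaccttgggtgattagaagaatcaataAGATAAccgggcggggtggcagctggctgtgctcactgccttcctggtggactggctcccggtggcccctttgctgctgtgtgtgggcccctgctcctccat
The Foxa1 window held 1 forkhead match, the reverse complement of TGTTTAC at bases 110 to 116 of the window, and 3.65% of all 32851 windows hold this motif. The Foxa2 window held AGATAA at bases 68 to 73 and the reverse complement of TATAAA at bases 43 to 48. The Hnf4a window held AGATAA at bases 199 to 204, a motif present in 11.2% of windows. The Foxa3 window held TATAAA at bases 215 to 220, just ahead of the start, and 13.6% of windows hold it. The Prdm1 window (chr10:44458699-44458998, minus strand) held reverse complements of TGTTTAC at bases 20 to 26 and of TGTTTGC at bases 88 to 94, the second in 5.07% of windows. No matches overlapped, and no motif was shared by all 4 genes that were low together. None of the 7 motifs was found in the Hhex window (chr19:37434591-37434890, plus strand), in the other 2 Foxa2 windows or in the other Hnf4a window. TATTTAC and the HNF4 and PRDM1 motifs, which 3.04%, 0.475% and 0.091% of windows hold, were in none of the 9.

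Foxa1, whose protein acts with FOXA2 in foregut, liver and lung endoderm, gave normalized signals of 267, 237 and 212 in Hopx-/- + XAV939 embryoid bodies, against 5124, 4634 and 4641 in Hopx+/- embryoid bodies. The groups lay far apart and neither overlapped the other on any array. Its log2 ratios were -4.26, -4.29 and -4.45 on the 3 arrays. It was 20.2-fold lower (log2 ratio -4.33 ± 0.10, 95% interval -4.56 to -4.11, adjusted p = 7.45e-08 by limma). Neither raw nor normalized signals of the 2 groups overlapped.

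Foxa2, which is needed for the node, the notochord and the anterior definitive endoderm and is also a visceral endoderm factor, gave normalized signals of 485, 535 and 432 in Hopx-/- + XAV939 embryoid bodies, against 9670, 9270 and 8931 in Hopx+/- embryoid bodies. The spread within each group was small beside the gap between them. Its log2 ratios were -4.32, -4.11 and -4.37 on the 3 arrays. It was 19.3-fold lower (log2 ratio -4.27 ± 0.14, 95% interval -4.50 to -4.03, adjusted p = 7.45e-08 by limma). The second Foxa2 probe gave 153, 137 and 169 in Hopx-/- + XAV939 embryoid bodies, against 1982, 1642 and 1848 in Hopx+/- embryoid bodies. It ran the same way and was 11.9-fold lower (log2 ratio -3.58 ± 0.12, 95% interval -3.81 to -3.34), an interval that does not reach that of the brighter probe (A_55_P2134236 is the brighter, A_55_P2067533 the second). The 2 probes thus differed in the size of the fall and not in its direction. The log ratio that the scanner software deposited put the second probe at -4.52, -4.13 and -4.28, close to the brighter one.

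Foxa3, the FOXA gene of later gut and liver, gave normalized signals of 124, 124 and 161 in Hopx-/- + XAV939 embryoid bodies, against 554, 501 and 524 in Hopx+/- embryoid bodies. The groups did not overlap. It was 3.88-fold lower (log2 ratio -1.96 ± 0.23, 95% interval -2.22 to -1.69, adjusted p = 1.83e-06 by limma), with -2.16, -2.01 and -1.70 on the 3 arrays. The size of this fall depended on the processing more than for Foxa1, Foxa2 and Hnf4a. It was -2.79 with the scanner software's log ratio, -1.49 in the authors' processed values and -1.08 with normexp on local backgrounds that the software marks as outliers, and it passed the test in each case.

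Hnf4a, which carries the lipoprotein and plasma protein programme in visceral endoderm and hepatocytes, gave normalized signals of 990, 975 and 845 in Hopx-/- + XAV939 embryoid bodies, against 9202, 8776 and 8547 in Hopx+/- embryoid bodies. Every array showed the same wide gap, with log2 ratios of -3.22, -3.17 and -3.34. It was 9.46-fold lower (log2 ratio -3.24 ± 0.09, 95% interval -3.47 to -3.02, adjusted p = 1.12e-07 by limma), and 50 genes, itself included, had a ratio at or below its own. Over the 14 other ways of processing the arrays that kept replicate 3 turned, it stayed between -3.29 and -2.92.

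**Figure D1:**
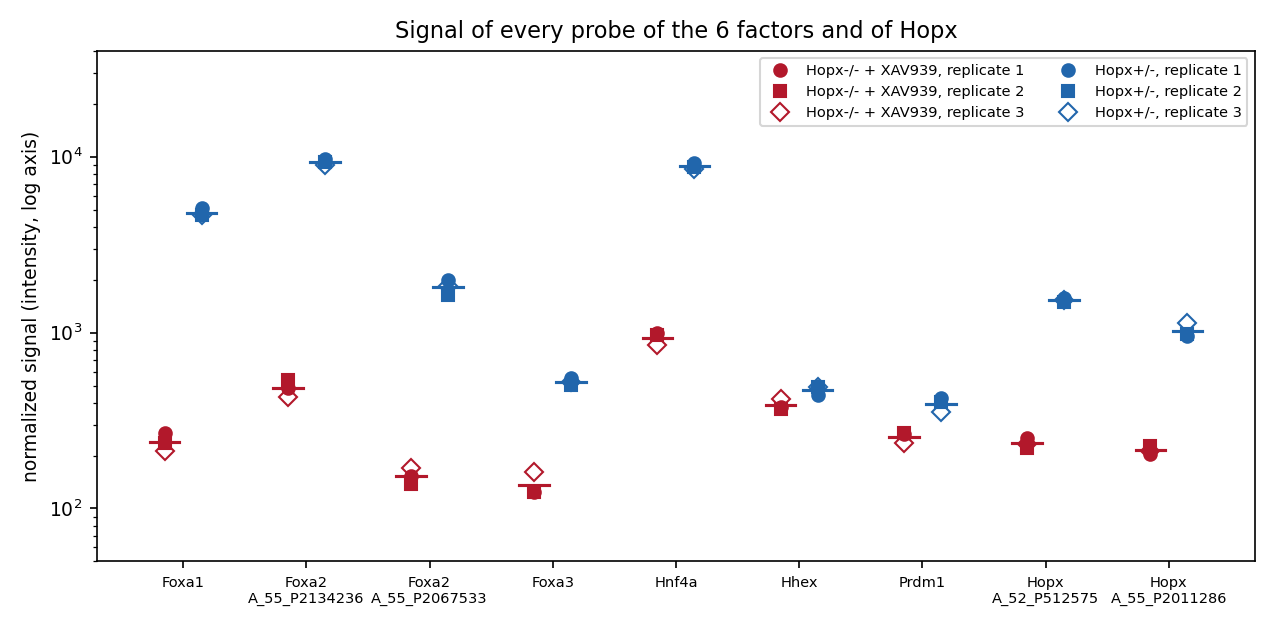
Normalized signal (intensity, log axis) of each probe of the 6 factors and of Hopx, with Hopx-/- + XAV939 embryoid bodies in red on the left and Hopx+/- embryoid bodies in blue on the right, 1 symbol per replicate and a bar at the mean. The Foxa1 signals sit between 212 and 267 in red and between 4634 and 5124 in blue, while the Hhex signals sit between 370 and 419 in red and between 439 and 493 in blue.

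Prdm1 gave normalized signals of 265, 267 and 235 in Hopx-/- + XAV939 embryoid bodies, against 427, 402 and 354 in Hopx+/- embryoid bodies. The groups did not overlap, but the gap was far narrower than for the FOXA genes, with log2 ratios of -0.69, -0.59 and -0.59. It was 1.54-fold lower (log2 ratio -0.62 ± 0.06, 95% interval -0.85 to -0.40, adjusted p = 0.000515 by limma), and 18.3% of tested genes had a lower ratio. Before normalization the log2 ratio of its raw signals was 0.11, -0.03 and -1.30, so the fall on replicates 1 and 2 rests on the correction for dye. It did not pass with the marked local backgrounds kept (adjusted p = 0.0638 by limma) or with median centring in place of loess (adjusted p = 0.0686 by limma).

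Hhex gave normalized signals of 378, 370 and 419 in Hopx-/- + XAV939 embryoid bodies, against 439, 491 and 493 in Hopx+/- embryoid bodies. The highest of the first group, 419, came close to the lowest of the second, 439. It was 1.22-fold lower (log2 ratio -0.29 ± 0.10, 95% interval -0.52 to -0.06, adjusted p = 0.0327 by limma), with -0.22, -0.41 and -0.24 on the 3 arrays. A ratio of this size was ordinary on these arrays, where 33.2% of tested genes had a lower one. Its raw signals were brighter in Cy5 on every array, with log2 ratios of 0.55, 0.22 and -0.89, so its sign on replicates 1 and 2 comes from the correction for dye. Hhex kept its call under 8 of the 14 other ways of processing that kept replicate 3 turned, with adjusted p between 0.0123 and 0.483 by limma. Among those that ended it were leaving out replicate 1 (-0.32, adjusted p = 0.100) and leaving out replicate 2 (-0.23, adjusted p = 0.272).

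**Figure D2:**
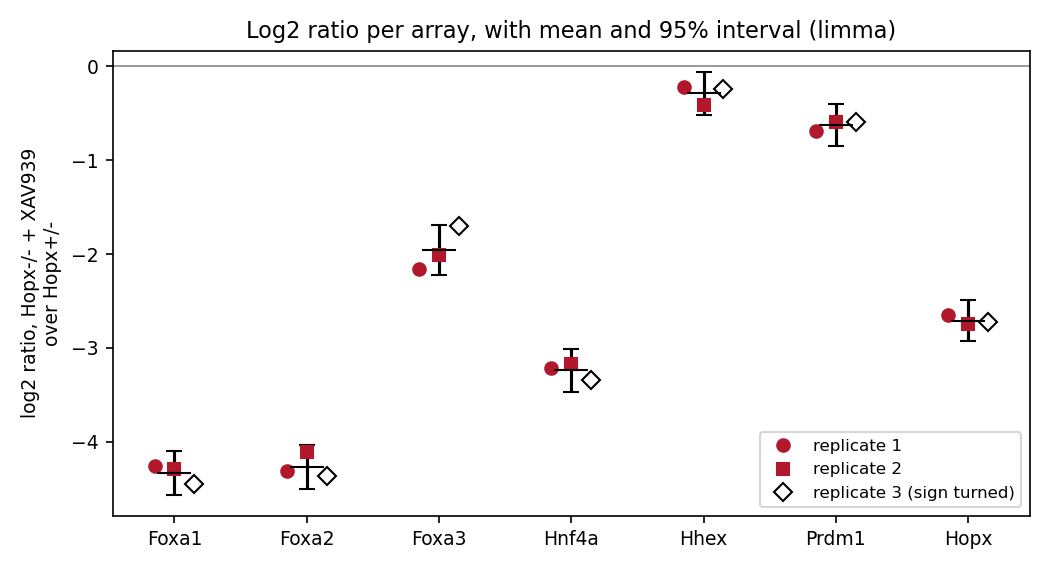
Log2 ratio of Hopx-/- + XAV939 over Hopx+/- on each array for the 6 factors and Hopx, with the mean as a line and its 95% interval by limma as a bar. The means fall from -0.29 for Hhex and -0.62 for Prdm1 to -4.27 for Foxa2 and -4.33 for Foxa1.

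The factors were also set against each other on the same arrays, as the difference of their log2 ratios over all 15 pairs. With 3 arrays an exact two-sided sign-flip permutation test cannot go below p = 0.25, so no pair could pass, and the 14 pairs with one sign on all arrays all stood at that floor (adjusted p = 0.268 over the 15 pairs). Foxa1 minus Foxa2 was the only pair with mixed signs, at 0.06, -0.17 and -0.08 on the 3 arrays (mean -0.07 ± 0.12, exact permutation p = 0.5). Foxa1 was lower than Hnf4a (-1.09 ± 0.04), as was the brighter Foxa2 probe (-1.03 ± 0.08). Foxa3 stood above Hnf4a by 1.29 ± 0.31 and below Prdm1 (-1.33 ± 0.19). Hhex stood above Prdm1 by 0.34 ± 0.15, the narrowest of the 14 gaps. The order from the largest fall to the smallest was therefore Foxa1 with Foxa2, then Hnf4a, Foxa3, Prdm1 and Hhex, and only the first 2 neighbours lay within their own spread. This holds for the brighter Foxa2 probe. The second probe, at -3.69, -3.58 and -3.45, lay above Foxa1 and below Hnf4a on all 3 arrays, closer to Hnf4a. Its place depended on the processing. With the scanner software's log ratio it was at -4.52, -4.13 and -4.28. There it lay closer to Foxa1 (-4.67, -4.56 and -5.07) than to Hnf4a (-3.23, -3.27 and -3.38). In the authors' processed values it lay above Hnf4a on replicate 1 (-2.29 against -2.82).

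Other ways of processing the arrays moved the sizes of the larger falls without ending their calls. With replicate 3 turned, Foxa1 ranged from -4.76 to -3.64 over 14 alternatives, Foxa2 from -4.44 to -3.85 and Foxa3 from -2.79 to -1.08, and these 3 and Hnf4a passed the test in every one (highest adjusted p = 0.0280, for Foxa3). Prdm1 ranged from -0.75 to -0.37 and passed in 12 of the 14. With the array slide as a fixed block these 5 kept their calls and only that of Hhex was lost (-0.27, adjusted p = 0.106 by limma). Replicate 1 was alone on its slide, so the first ratio given for each factor is the value within that slide and the other 2 are those within the second.

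**Figure D3:**
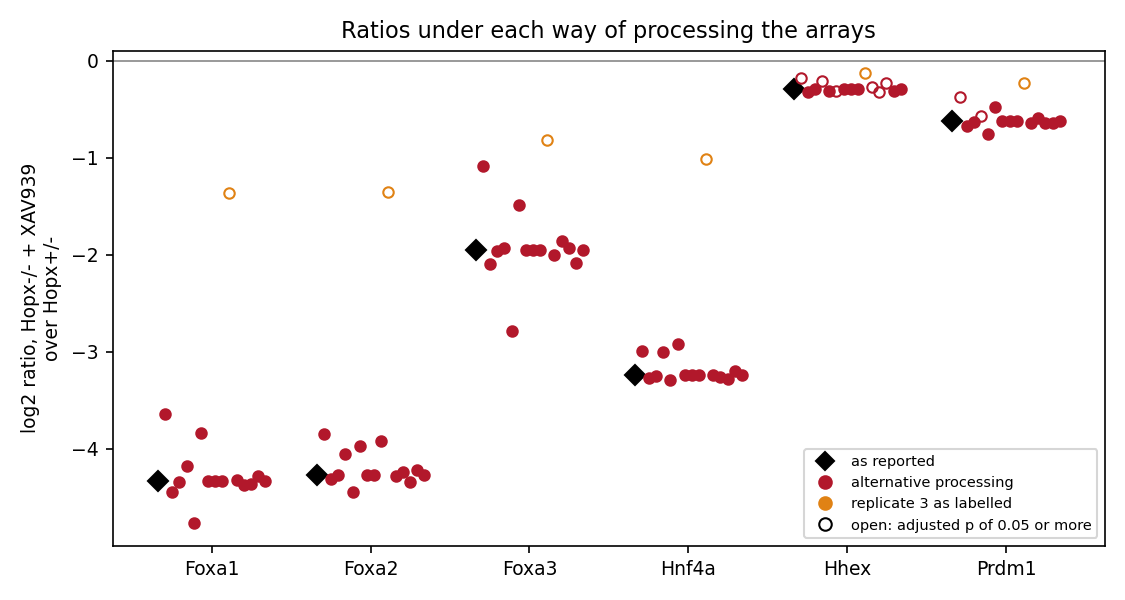
Log2 ratio of Hopx-/- + XAV939 over Hopx+/- for each factor as reported (black diamond) and under 15 alternatives, open where the adjusted p was 0.05 or more and orange where replicate 3 was used as labelled. Foxa1, Foxa2, Foxa3 and Hnf4a stay filled under the 14 alternatives in red, while Hhex is open in 6 and Prdm1 in 2.

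Genes with the nearest ratios on the 3 arrays, by Euclidean distance of the log2 ratios, differed from factor to factor. Nearest to Foxa1 were Foxa2 (distance 0.202), Ttr (0.347) and Ctsh (0.393), and nearest to Foxa2 were Foxa1, Ttr (0.410) and Tff3 (0.489). The ratio of Ttr, the thyroid hormone carrier transthyretin, was -4.18 ± 0.18, and that of Tff3, a trefoil peptide of mucous epithelia, was -4.03 ± 0.09. Hnf4a lay nearest to Myo5b (0.241), Tac2 (0.252) and Soat2 (0.261). Foxa3 lay nearest to Lims2 (0.065), Fst (0.121) and Vgll2 (0.132), and had ordinary company in a denser range of ratios. Around Prdm1 (Tmem116, Fam89a, Tube1) and Hhex (Stxbp5, Setd3, Lyst) the distances were 0.038 or less, as many genes had such small ratios.

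Other regulators of endoderm were mostly lower as well, none by as much as Foxa1 or Foxa2. The background of 33% of genes lower and 31.5% higher applies to the count of every list from here on, and Sox17, Foxh1, Foxj1 and Prdm14 each stand in 2 of them. Genes of each list that go beyond its 2 largest rises and falls were chosen for naming after their values were seen. Of 17 such regulators on the array 13 were tested, of which 12 fell, 0 rose and 1 did not pass, with a median log2 ratio of -1.66. Tbx3, a T-box factor of extra-embryonic endoderm and liver, was 8.93-fold lower (-3.16 ± 0.24), and Sox17, an SRY-box factor needed for definitive endoderm, was 5.78-fold lower (-2.53 ± 0.10). Gata6 and Gata4, zinc finger factors of primitive endoderm and also of heart, stood at -1.93 ± 0.32 and -1.80 ± 0.22. At the small end Prox1, a hepatic and lymphatic factor, was at least 1.39-fold lower, since its signal was not well above background on any array in Hopx-/- + XAV939 embryoid bodies. Onecut2 had -0.19 ± 0.005 (adjusted p = 0.108 by limma), and Hnf4g, Onecut1, Cebpa and Pdx1 were too dim to test. The number called lower ran from 9 to 13 over the 14 alternatives, with Elf3 and Prox1 among those lost.

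Genes that FOXA or HNF4A proteins are known to control in liver or visceral endoderm mostly fell too, some by more than the factors themselves. Of 24 on the array 20 were tested, of which 18 fell, 0 rose and 2 did not pass, with a median log2 ratio of -3.03. Rbp4, the plasma carrier of retinol, was 36.4-fold lower (-5.18 ± 0.36), with signals of 3048, 1695 and 1319 in Hopx-/- + XAV939 embryoid bodies, against 85951, 62404 and 61002 in Hopx+/- embryoid bodies. Igfbp1, an insulin-like growth factor carrier and FOXA target, was 32.8-fold lower (-5.04 ± 0.45), and Ttr was 18.2-fold lower. Afp, the fetal plasma protein, was 16.7-fold lower but varied most (-4.06 ± 1.45). Its signals were 4224, 960 and 1232 in Hopx-/- + XAV939 embryoid bodies, against 22405, 32723 and 31639 in Hopx+/- embryoid bodies. Apob and Mttp, which build lipoprotein particles, were at -3.69 ± 0.73 and -3.60 ± 0.05. F10 (-0.34 ± 0.54) and Apoc3 (0.05 ± 0.25) did not pass, and Alb, Pck1, G6pc and Pklr were too dim to test. The mean over the tested Apoc3 probes was -0.88 (adjusted p = 4.9e-05 by limma), against 0.05 for the brightest probe, so its probes disagreed.

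The uptake and signalling genes of visceral endoderm fell without exception, 11 of 11, with a median of -3.01, and the count was 11 under all 14 alternatives. Cubn, whose product cubilin takes up proteins from the maternal side, was 46.4-fold lower (-5.54 ± 0.61), and Ctsh, a lysosomal cathepsin, 21.3-fold lower (-4.41 ± 0.36). Ihh, the hedgehog ligand that visceral endoderm secretes, was 8.07-fold lower with almost no spread (-3.01 ± 0.01). The least affected were Lrp2, the partner receptor megalin (-1.14 ± 0.26), and Ctsz (-1.15 ± 0.06). The summed signal of the list was 21125 to 25870 in Hopx-/- + XAV939 embryoid bodies, against 197641 to 224457 in Hopx+/- embryoid bodies. The Hopx+/- sums may be underestimates, since the probe of Spink1, a trypsin inhibitor listed as Spink3, was saturated there on 2 of 3 arrays.

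Genes of the anterior visceral endoderm, the domain in which HHEX, FOXA2 and PRDM1 all act, went the other way. Of 7 tested, 6 rose and 1 fell, with a median of 1.13. Otx2, a homeodomain factor of anterior visceral endoderm that the epiblast and forebrain also use, was 6.88-fold higher (2.78 ± 0.19), with signals of 14545, 15736 and 16452 in Hopx-/- + XAV939 embryoid bodies, against 2208, 1976 and 2646 in Hopx+/- embryoid bodies. Lefty1, a secreted Nodal antagonist, was 5.87-fold higher (2.55 ± 0.29), and Hesx1, a homeodomain repressor, 5.20-fold higher (2.38 ± 0.45). Cer1, a secreted antagonist of Nodal and BMP, had only low signals, 183, 203 and 144 in Hopx-/- + XAV939 embryoid bodies, against 87, 78 and 76 in Hopx+/- embryoid bodies. Dkk1, a secreted Wnt antagonist, fell (-0.58 ± 0.42). With the marked local backgrounds kept, Cer1, Gsc, Lhx1 and Dkk1 lost their calls, which left 3 of the list called higher and 0 lower. Markers of pluripotent and epiblast cells rose with this list, 6 of 6 with a median of 2.17. Their summed signal was 70505 to 106238 in Hopx-/- + XAV939 embryoid bodies, against 10532 to 14715 in Hopx+/- embryoid bodies. Most of the Hopx-/- + XAV939 sum came from Dnmt3b, at 51336, 41346 and 75036, against 3678, 2589 and 5842 in Hopx+/- embryoid bodies. The log2 ratios of the 6 markers ran from 1.00 for Nanog to 3.99 for Fgf5. The part of these markers in the higher anterior genes was not tested.

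Genes of definitive endoderm and the gut tube were split. Of 11 tested, 7 fell, 3 rose and 1 did not pass, with a median of -2.20. Cpm, a carboxypeptidase, was 14.9-fold lower (-3.90 ± 0.14), and Tmprss2, a serine protease of gut epithelium, was 10.3-fold lower (-3.37 ± 0.16). The 3 that rose were Trh, the thyrotropin-releasing hormone gene, 9.27-fold higher (3.21 ± 0.24), and the epithelial adhesion genes Cdh1 (1.21 ± 0.25) and Epcam (0.82 ± 0.26), both also carried by pluripotent cells. Cxcr4, a chemokine receptor used to sort definitive endoderm, had -0.16 ± 0.23 (adjusted p = 0.266 by limma).

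Nodal pathway genes, which act upstream of Foxa2 in the embryo, were more often called higher than lower. Of 13 genes on the array 12 were tested, of which 6 rose, 1 fell and 5 did not pass, with a median of 0.35. Gdf3, a TGF-β family ligand, was 4.01-fold higher (2.00 ± 0.42), and Foxh1, the forkhead partner of SMAD2 and SMAD3, 3.45-fold higher (1.79 ± 0.28). Nodal itself was 2.37-fold higher (1.24 ± 0.17), and Eomes, a T-box factor needed for definitive endoderm, was 2.01-fold higher (1.01 ± 0.58). Smad3 fell (-0.58 ± 0.15), the receptors Acvr1b, Acvr2a and Acvr2b and the transducers Smad2 and Smad4 did not pass, and Mixl1 was above background on no array. Eomes lost its call with the marked local backgrounds kept, and Tdgf1 and Smad3 lost theirs with median centring.

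Genes of the node and notochord, the other site of Foxa2 activity, were dim and mixed. Of 7 on the array 5 were tested, of which 2 rose (Sox9 0.70 ± 0.28, Foxj1 0.61 ± 0.20), 2 fell (Shh -1.09 ± 0.09, Nog -0.68 ± 0.46) and Chrd had 0.11 ± 0.14. Shh, a FOXA2 target in the floor plate, was well above background on 1 of 3 arrays in Hopx-/- + XAV939 embryoid bodies and on all 3 in Hopx+/- embryoid bodies. The summed signal of the list was 870 to 1047 in Hopx-/- + XAV939 embryoid bodies, against 805 to 890 in Hopx+/- embryoid bodies. The number called ran from 1 to 3 for higher genes and from 0 to 2 for lower ones over the 14 alternatives.

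Co-regulators of the 6 factors did not move as a group. Of 10 tested, 3 rose, 3 fell and 4 did not pass, with a median of -0.14. Nr2f1 was 3.66-fold higher (1.87 ± 0.11), Tle4, a Groucho corepressor, 2.06-fold higher (1.04 ± 0.16) and Nr2f6 1.37-fold higher (0.46 ± 0.22). Nr2f2, an orphan nuclear receptor that binds sites shared with HNF4A, fell (-0.92 ± 0.48), as did the corepressor genes Tle5 (-0.48 ± 0.05) and Tle6 (-0.43 ± 0.17). Of these 6 calls that of Nr2f1 alone was kept under all 14 alternatives. Tle1, Tle2, Tle3 and Ppargc1a did not pass. The mean over the tested Tle1 probes was 0.70 (adjusted p = 0.000142 by limma), against -0.10 for the brightest probe.

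**Figure D4:**
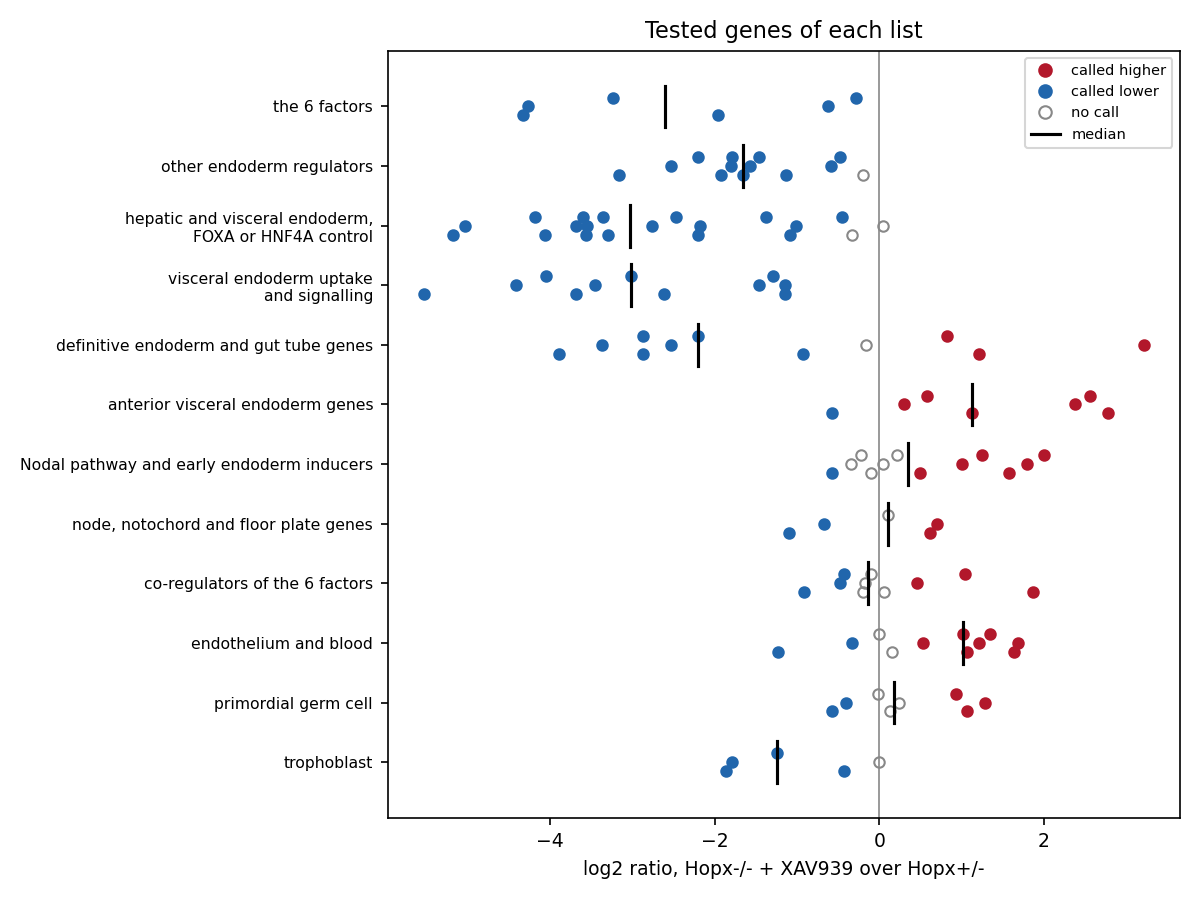
Log2 ratio of Hopx-/- + XAV939 over Hopx+/- of every tested gene in 12 lists, 1 point per gene, filled red where called higher, filled blue where called lower and open where not called, with the list's median as a bar. The 2 visceral endoderm lists have medians of -3.03 and -3.01, the anterior visceral endoderm list 1.13 and the co-regulators -0.14.

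Most of the forkhead family had smaller ratios than the FOXA genes, in either direction. Of 41 other forkhead genes on the array 32 were tested, of which 14 rose, 11 fell and 7 did not pass, with a median of 0.10 and no list-wide direction. The largest fall was Foxq1, a forkhead gene of epithelia, at 7.72-fold lower (-2.95 ± 0.26), which lay between Foxa2 and Foxa3. The next, Foxf2, had a ratio of -0.94 ± 0.12, with a signal well above background on 1 of 3 arrays in Hopx-/- + XAV939 embryoid bodies and on all 3 in Hopx+/- embryoid bodies. The largest rises were Foxd3, a forkhead gene of pluripotent and neural crest cells (2.23 ± 0.39), and Foxn4 (2.14 ± 0.17). Foxd3 was well above background on all 3 arrays in Hopx-/- + XAV939 embryoid bodies and on 1 of 3 in Hopx+/- embryoid bodies. With the marked local backgrounds kept, Foxf2, Foxd3 and Foxn4 lost their calls, and over the 14 alternatives the counts ran from 6 to 14 higher and from 3 to 12 lower.

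Prdm1, by contrast, lay inside the range of its family. Of 13 other PRDM genes 10 were tested, of which 1 rose, 3 fell and 6 did not pass, with a median of -0.19. Prdm6, a smooth muscle and cardiac repressor, was 4.40-fold lower (-2.14 ± 0.17), and Prdm9, the meiotic recombination factor, was 2.25-fold lower (-1.17 ± 0.27), both more than Prdm1. Prdm8 (-0.37 ± 0.14) also fell, and Prdm4 (0.55 ± 0.16) rose, though all but Prdm6 lost the call under at least 1 alternative. Prdm14, which acts with PRDM1 in germ cell precursors, had 0.13 ± 0.28 (adjusted p = 0.386 by limma).

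**Figure D5:**
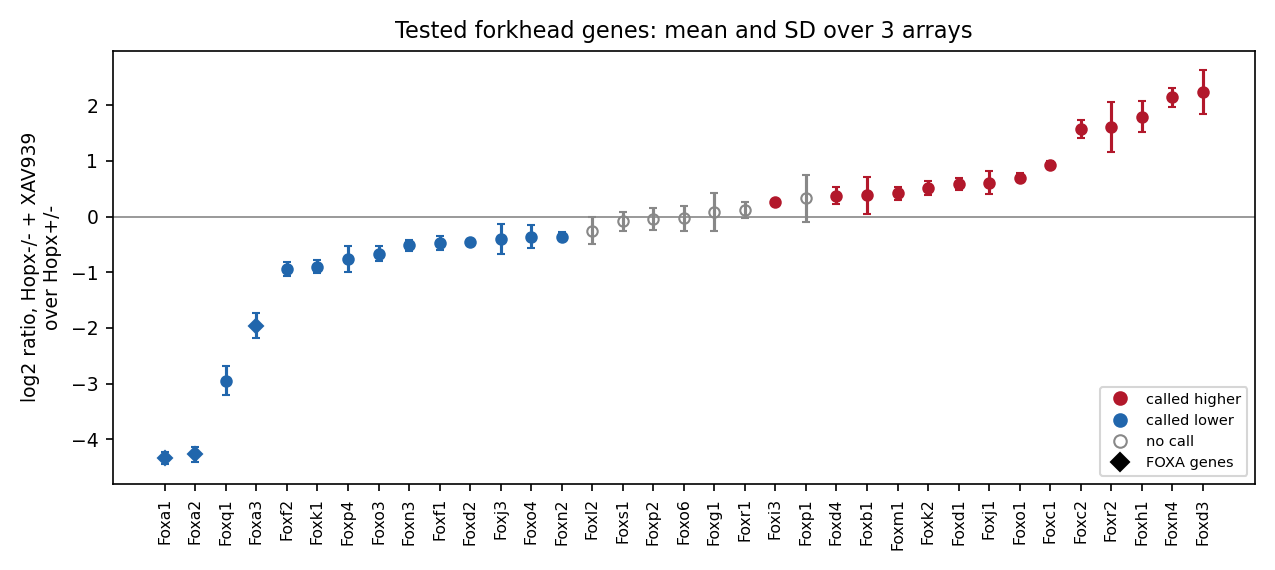
Mean log2 ratio of Hopx-/- + XAV939 over Hopx+/- with its SD over 3 arrays for all tested forkhead genes, in order of the ratio, with the FOXA genes as diamonds. Foxa1, Foxa2 and Foxa3 hold 3 of the 4 lowest places, with Foxq1 at -2.95 between Foxa2 and Foxa3, and the other genes run from -0.94 to 2.23.

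Markers of other cell types that carry Hhex or Prdm1 moved in different directions beside them. Of 11 endothelial and blood genes 7 rose, among them Etv2 (1.68 ± 0.26), Fli1 (1.64 ± 0.26) and Cdh5 (1.34 ± 0.24). The 2 that fell were Gata2 (-1.23 ± 0.09) and Tek (-0.34 ± 0.28), while Pecam1 and Erg did not pass. With the marked local backgrounds kept, 4 genes of this list were higher and 1 lower, and Etv2, Tal1 and Gata1 were no longer called. The summed signal of the list was 9152 to 10990 in Hopx-/- + XAV939 embryoid bodies, against 5709 to 6448 in Hopx+/- embryoid bodies, beside the near-level Hhex signal. Kdr, 1.44-fold higher, was the largest part of these sums. It gave 4787, 4036 and 4179 in Hopx-/- + XAV939 embryoid bodies, against 2683, 3067 and 3271 in Hopx+/- embryoid bodies. The Kdr call was lost with the mean over tested probes and without replicate 1. Germ cell markers were divided, with 3 of 8 higher (2 to 4 over the 14 alternatives) and 2 lower (0 to 2), and had sums of 6914 to 7892 in Hopx-/- + XAV939 embryoid bodies, against 7529 to 7937 in Hopx+/- embryoid bodies, and Dazl was too dim to test. Trophoblast markers fell in 4 of 5 tested cases. Their sums were 4286 to 6109 in Hopx-/- + XAV939 embryoid bodies, against 11358 to 13441 in Hopx+/- embryoid bodies. Most of these sums came from Hand1, at 4890, 3840 and 2971 in Hopx-/- + XAV939 embryoid bodies, against 8701, 9971 and 8609 in Hopx+/- embryoid bodies. Elf5 and Tpbpa, also on this list, were above background on no array and were not tested. The part of these cell types in the Hhex and Prdm1 signals was not tested.

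Some other marker sums fell together with the FOXA genes and Hnf4a. The 6 factors themselves summed to 2303 to 2509 in Hopx-/- + XAV939 embryoid bodies, against 23489 to 25416 in Hopx+/- embryoid bodies. Parietal endoderm markers fell in 8 of 9 cases, led by Lama1 (-3.52 ± 0.49) and Sparc (-2.26 ± 0.17), with sums of 40335 to 61335 in Hopx-/- + XAV939 embryoid bodies, against 208986 to 240508 in Hopx+/- embryoid bodies, and Thbd rose (0.39 ± 0.06). The Thbd call was lost under several alternatives, among them the marked local backgrounds kept (0.17, adjusted p = 0.236 by limma) and leaving out replicate 1 or replicate 2. The Sparc probe was saturated in Hopx+/- embryoid bodies on 1 array, so its fall and these Hopx+/- sums may be underestimates. Cardiomyocyte markers, the cells that the protocol aims at, were above background in both groups and fell in 6 of 6 cases, with sums of 18968 to 23409 in Hopx-/- + XAV939 embryoid bodies, against 89354 to 105798 in Hopx+/- embryoid bodies. Fibroblast or feeder markers fell in 4 of 7 cases and rose in 1, but only 2 were called lower with the marked local backgrounds kept, when Col1a2 and Lum lost their calls. Their sums were 17524 to 27518 in Hopx-/- + XAV939 embryoid bodies, against 31292 to 46387 in Hopx+/- embryoid bodies. The part of these shifts in the falls of the 6 factors was not tested.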

How the data were processed

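RNA of both groups was co-hybridised on 3 two-colour arrays of Agilent design 026655 (44397 spots, 43020 of them not controls), 1 on a first slide and 2 on a second. The deposited spot and background values are median pixel intensity, with 0 or 1 marks for outlier, saturated and well-above-background spots; the authors used Agilent Feature Extraction, which is version 11.5.1.1 in the file headers but 8.5.1.1 per the submitters' processing notes. The deposited LogRatio is log10 of Cy5 over Cy3, per the file headers. The authors' processed values were taken as log2 ratios. Their r with the Cy5 over Cy3 ratios normalized here, before replicate 3 was turned, was 0.865, 0.961 and -0.956. Their slope on the raw log2 ratios of Cy5 over Cy3 was 0.688, 0.799 and -0.797. Their medians were 0.086, -0.08 and 0.053, but their normalization and centring are unstated in the sources used here.

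Of the 39429 probes, 28025 were named by RefSeq accession with 1 symbol and 11404 were not. In limma 3.58.1 (R 4.3.3), marked outlier backgrounds were replaced by the channel's median, signals corrected by normexp (offset 50) and normalized by loess. A probe entered the test when either channel was well above background on each of the 3 arrays, and the brightest such probe stood for its gene. The mean ratio of Hopx-/- + XAV939 over Hopx+/- was compared with 0 by limma's moderated test, adjusted by Benjamini and Hochberg over 14718 genes (threshold 0.05); it had 8.66 degrees of freedom, 6.66 of them prior. Normalized signals are channel values after quantile scaling of average intensity between arrays. A signal that was never well above background in a group gave only a bound on the fold. Fits were tested on simulated data. The p-values rest on the spread of 3 arrays together with the spread that limma pools over all tested genes, and the number of arrays limits the precision. A dye effect particular to a gene was not modelled. Of the spots that were not controls, 61.4% to 68.0% were well above background in Cy3 and 56.6% to 66.6% in Cy5.

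Genes named were the 6 factors, Hopx, the 2 largest rises and falls of each gene list and family, and the 3 nearest genes of each factor. Members of counts of 5 or fewer were named in most cases but not all. The lists of cell type markers did not follow this rule, and only some of their genes are named. Further genes were picked after their values were seen. The factors, lists and motifs were chosen with earlier results of these data known. Forkhead and PRDM families were taken by symbol. Array 3 was turned, against its label. The alternatives covered background, normalization, values, probe filter, probe choice, slide, model, replicates and the sign of array 3. Some genes counted in the lists are not reported here by name.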

Additional observations from a re-analysis of the deposited data

How the results depend on the processing

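Foxa1, Foxa2, Foxa3 and Hnf4a kept their direction and their call under all 14 alternatives in which replicate 3 was turned. With marked local backgrounds kept, 2664 genes were higher and 2257 lower (3448 and 2557 probes), Hhex was at -0.18 (adjusted p = 0.211 by limma) and Prdm1 at -0.37. With median centring, 3034 genes were higher and 2021 lower (4490 and 3177 probes), so that 60.0% of calls were higher, against 48.9% of 4639 higher and 4851 lower calls with loess; Hhex was at -0.21 (adjusted p = 0.483) and Prdm1 at -0.57. Both settings left 4 of the 6 factors called. Hhex was also not called in the authors' processed values (-0.31, adjusted p = 0.0668) or with slide as a fixed block (-0.27), a setting added after seeing the data because a random slide block could not be estimated from 3 arrays and was not run. Leaving out 1 replicate gave Hhex -0.32 to -0.23, 5 or 6 factors called lower, 3510 to 5284 genes higher and 3712 to 5340 lower, and 5179 to 8062 probes higher and 5573 to 8749 lower. With replicate 3 as labelled, 0 genes and 0 probes were called, 0 of the factors were called lower, and the ratios were -1.37 for Foxa1, -1.35 for Foxa2, -0.82 for Foxa3, -1.02 for Hnf4a, -0.13 for Hhex and -0.23 for Prdm1. There Dkk1 (0.13), Eomes (-0.0272), Nr2f6 (-0.0186), Tek (0.0467), Col1a2 (0.00624) and Foxj3 (0.0761) changed sign. The mean over tested probes reversed Apoc3 (-0.88) and Tle1 (0.70). Of 145 called genes of the lists, 90 kept their call under each of the 14 alternatives that tested them, and 44 lost it with marked backgrounds kept. Why the calls were lost was not tested. No paired analysis was possible because each ratio is taken within its own array, which is already the pair. Signals near background limit what can be said of Cer1, Hesx1, Shh, Prox1, Foxf2 and Foxd3, and saturation limits Sparc and Spink1.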
